A study of Mus musculus with 64 samples.

Results

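The SOCS family of cytokine signaling inhibitors comprises Socs1, Socs2, Socs3, Socs4, Socs5, Socs6, Socs7 and Cish, and these 8 genes were taken by symbol from the 55487 genes of the count tables. All 8 had read pairs in each of the 64 libraries and were among the 14537 genes tested. SOCS proteins carry an SH2 domain, which binds phosphorylated tyrosines of cytokine receptors and of JAK kinases, and a SOCS box, which recruits Elongin B, Elongin C and Cullin 5 to mark the bound proteins for degradation. JAK kinases phosphorylate STAT transcription factors, STATs switch on Socs1, Socs2, Socs3 and Cish, and the proteins made from them turn the signal down, so the transcripts are read in macrophages as a trace of recent cytokine signaling. Socs2 has also been described as a target gene of the aryl hydrocarbon receptor (AhR), a transcription factor activated by small molecules.

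mRNA was measured in bone marrow-derived macrophages (BMMs), grown with M-CSF from L929 cell supernatant, of female Ahr+/+ mice on C57BL/6JRj background and of Ahr-/- mice backcrossed to that background, aged 8 to 12 weeks, with 4 mice per genotype. Cells were exposed for 6 h to 1 µM benzo(a)pyrene (BaP), a polycyclic aromatic hydrocarbon, to 10 µM indole-3-carbinol (I3C), a plant compound, or to 0.01% DMSO, the solvent. BMMs were then activated with 10000000 heat-killed Salmonella enterica (hk S.E.) per ml for 3 h or 20 h. Unactivated BMMs received DMSO alone, so the 16 groups of 4 libraries hold no ligand without bacteria. The Ahr deletion was not limited to macrophages, and both ligands were given at 1 dose each. No source used here states which library came from which mouse, so the p-values measure the spread between libraries. Levels below are CPM, that is read pairs of a gene scaled to a common library total and for library composition, and group means are given as mean ± SD with n = 4 libraries.

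Libraries held between 12152496 and 50644601 read pairs assigned to genes, except for 1 library of unactivated Ahr+/+ BMMs at 20 h with 233047331. In the 8 groups given DMSO the 8 macrophage markers summed to 18829 to 34773 CPM, and markers of NK cells, of mast cells and basophils and of erythroid cells each summed to 0.278 CPM or less. The 5 T cell markers summed to 2.70 CPM or less and the 4 B cell markers to 6.21 CPM or less. Ahr itself was read at 1.09 to 14.9 CPM in Ahr+/+ BMMs given DMSO and at 5.11 to 28.1 CPM in Ahr-/- BMMs given DMSO. A count over all exons of Ahr need not fall when only a stretch of the gene is deleted, so it does not check the genotype labels. Ahrr, the AhR repressor and a direct AhR target, was the reference for exposure. Per the paper, either ligand raised Ahrr at 3 h and 20 h in Ahr+/+ BMMs and did not in Ahr-/- BMMs. After 3 h of hk S.E., Ahrr stood at 0.346 to 0.582 CPM in Ahr+/+ BMMs given DMSO, at 4.18 to 6.96 CPM after BaP and at 1.83 to 2.55 CPM after I3C, with no overlap between the 3 groups.

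The position of the gene and a stretch of the RefSeq promoter are given for Socs1, Socs3 and Cish, the members with the highest fold at 3 h of activation. Socs1 (ENSMUSG00000038037.5) lies on the minus strand of chromosome 16 at 10782240 to 10785536 in GRCm38, Socs3 (ENSMUSG00000053113.3) on the minus strand of chromosome 11 at 117966079 to 117970047, and Cish (ENSMUSG00000032578.7) on the plus strand of chromosome 9 at 107296026 to 107302784. RefSeq promoter windows of GRCm38.p6, which run from 250 bases before to 50 bases after a gene's start, were held for Cish, Socs1, Socs3 and Socs4. They were searched on both strands for TTCNNNGAA, the element that STAT dimers bind, for GAAA, any 2 bases and GAAA again, a form of the element that interferon regulatory factors bind, and for GCGTG, the core of the element that AhR binds. The 250 bases before the start of Socs1, the 29 bases around the match of Socs3 and the 30 bases around the matches of Cish are shown, read 5′ to 3′ along the gene, with the motif matches in capitals. The Cish stretch begins just before the start of the RefSeq transcript and lies in an annotated Cish 5′ untranslated exon. The Socs1 and Socs3 stretches overlap no annotated exon.

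Socs1, chr16:10785537-10785786, minus strand: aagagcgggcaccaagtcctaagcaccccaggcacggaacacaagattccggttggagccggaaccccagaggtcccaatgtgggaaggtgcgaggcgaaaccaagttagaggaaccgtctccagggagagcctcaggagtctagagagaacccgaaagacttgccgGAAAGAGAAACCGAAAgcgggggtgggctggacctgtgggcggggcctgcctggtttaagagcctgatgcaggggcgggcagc
Socs3, chr11:117969502-117969530, minus strand: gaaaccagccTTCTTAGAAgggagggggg
Cish, chr9:107296654-107296683, plus strand: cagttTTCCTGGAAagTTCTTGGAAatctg

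Socs1 held 2 overlapping matches to the interferon regulatory factor element, Socs3 held 1 TTCNNNGAA match and Cish held 2 TTCNNNGAA matches. Among 32851 promoter windows of 300 bases, 3.44% held the interferon regulatory factor element and 8.3% held TTCNNNGAA. GCGTG was matched in 1 of the 4 windows, that of Socs4, and in 32.4% of all windows. A match describes the letters and is no measure of binding.

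To ask how BMMs changed the family on contact with bacteria, hk S.E. was compared with unactivated BMMs given DMSO. Socs1, Socs3, Cish and Socs7 rose and Socs5 fell at 3 h in both genotypes. By 20 h Socs1 and Socs3 were still far above the unactivated level, Socs2 had risen, Socs6 had fallen, and Cish and Socs7 were close to where they began in Ahr+/+ BMMs. In bulk RNA a change in the level per cell and a change in the share of cells that carry the transcript cannot be told apart. Some markers of other cells moved with activation as well. At 3 h the 5 neutrophil and precursor markers went from 2.18 to 9.45 CPM without hk S.E. to 24.8 to 61.7 CPM with it in Ahr+/+ BMMs, and from 4.18 to 7.07 CPM to 28.8 to 34.6 CPM in Ahr-/- BMMs. Of these, Ly6g, Mpo and Elane stayed at 0.275 CPM or less in each library given DMSO, and Ngp held most of the sum. The 5 fibroblast markers went from 0.552 to 0.828 CPM to 7.18 to 12.4 CPM in Ahr+/+ and from 0.564 to 3.41 CPM to 13.5 to 21.7 CPM in Ahr-/- BMMs, and the 4 dendritic cell markers from 0.0474 to 0.345 CPM to 0.562 to 1.03 CPM and from 0.0950 to 0.395 CPM to 0.706 to 1.06 CPM. The B cell markers were lower with hk S.E. in both genotypes at both times, with no overlap. At 20 h the neutrophil markers overlapped between activated and unactivated BMMs, at 2.52 to 6.73 CPM and 2.64 to 7.56 CPM in Ahr+/+ BMMs. Other lists did not overlap there. Without and with hk S.E., fibroblast markers held 0.597 to 1.31 and 2.76 to 3.96 CPM. Dendritic cell markers held 0.189 to 0.426 and 0.859 to 1.83 CPM. T cell markers held 1.64 to 2.70 and 0.346 to 0.584 CPM, and macrophage markers 25460 to 28848 and 18829 to 22840 CPM. In Ahr-/- BMMs at 20 h T cell markers did not overlap either, whereas fibroblast, dendritic cell and macrophage markers did. The part of such cells in the changes of the members was not tested. At 3 h, 5 of 8 members passed in each genotype, where 56.6% of all tested genes passed in Ahr+/+ and 57.3% in Ahr-/- BMMs. Of these members 4 rose and 1 fell in each genotype, against 24.2% of all tested genes that rose and 32.3% that fell in Ahr+/+ BMMs and 25.5% and 31.8% in Ahr-/- BMMs. At 20 h, 7 of 8 members passed in each genotype, where 58.6% and 54.3% of all genes did. Here 5 rose and 2 fell, against 29.9% and 28.7% of all genes in Ahr+/+ BMMs and 28.3% and 26.0% in Ahr-/- BMMs.

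**Figure D1:**
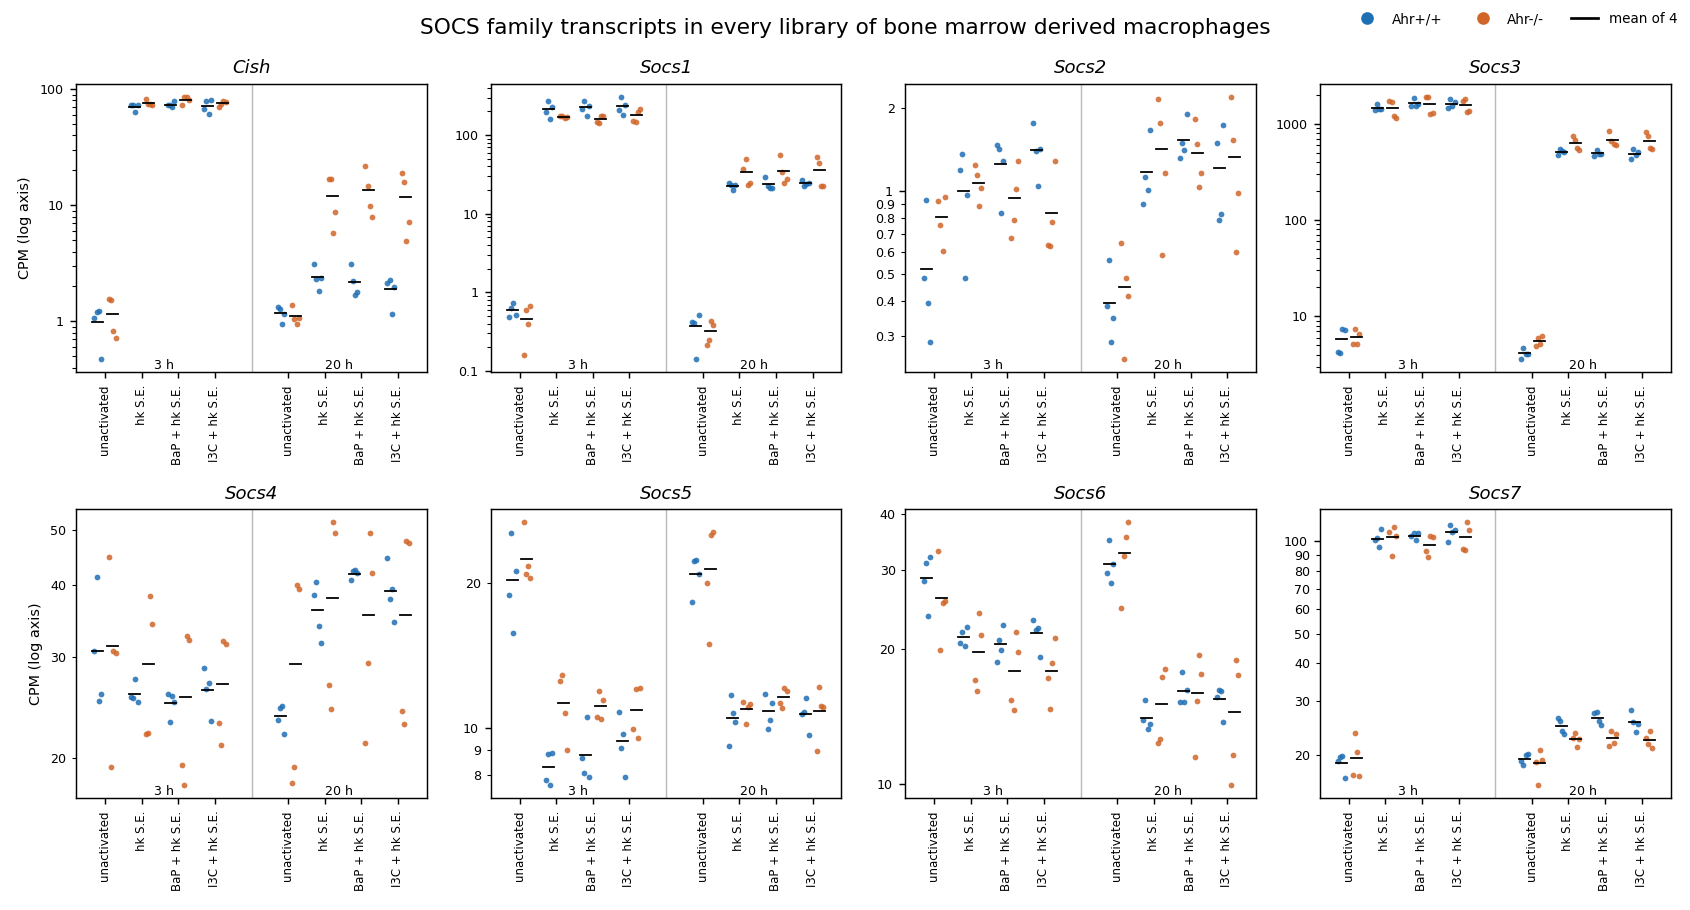
CPM of the 8 SOCS family members in each of the 64 libraries by group, on log axes whose range differs by panel, with points for libraries and bars for means of 4. Group means of Socs3 run from 4.11 to 1633 CPM, whereas those of Socs4 run from 23.6 to 41.9 CPM.

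Socs1 encodes the inhibitor that blocks JAK kinase activity directly and limits interferon signaling. In unactivated Ahr+/+ BMMs at 3 h it was read at 0.487, 0.627, 0.740 and 0.522 CPM, that is 10 to 25 read pairs per library. After 3 h of hk S.E. the libraries held 194, 268, 161 and 228 CPM. The groups lay far apart, and the log2-fold change was 8.47 ± 0.34 (SE), a 354-fold rise with a 95% confidence interval of 221 to 567 (adjusted p = 3.91e-29, from the quasi-likelihood test of edgeR, adjusted by Benjamini-Hochberg over all tested genes, as throughout). Ahr-/- BMMs went from between 0.158 and 0.678 CPM to 177, 173, 163 and 170 CPM. Their log2-fold change was 8.59 ± 0.35 (adjusted p = 4.46e-29).

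By 20 h Socs1 had come down to 24.4, 23.4, 20.1 and 23.1 CPM in activated Ahr+/+ BMMs and to 37.1, 49.9, 23.0 and 24.8 CPM in Ahr-/- BMMs. Every activated library was still above every unactivated library of its genotype, in which Socs1 did not exceed 0.509 CPM. Activation at 20 h gave a rise of 52.6-fold in Ahr+/+ BMMs (adjusted p = 4.29e-23) and of 97.2-fold in Ahr-/- BMMs (adjusted p = 2.61e-24).

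Socs3 inhibits signaling through gp130, the receptor chain shared by the IL-6 family, and through the G-CSF and leptin receptors. It was the most abundant member after activation. Unactivated Ahr+/+ BMMs at 3 h held 4.29, 4.19, 7.45 and 7.11 CPM, and activated ones 1401, 1612, 1435 and 1421 CPM. The log2-fold change of 8.01 ± 0.21 corresponded to a 257-fold rise with an interval of 192 to 344 (adjusted p = 1.38e-37). Activated Ahr-/- BMMs at 3 h held 1745, 1691, 1219 and 1150 CPM, libraries 1 and 2 above libraries 3 and 4, with a log2-fold change of 7.91 ± 0.21 (adjusted p = 1.67e-37).

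At 20 h Socs3 remained high at 471, 541, 518 and 515 CPM in activated Ahr+/+ BMMs, a log2-fold change of 6.96 ± 0.20 over unactivated BMMs (adjusted p = 2.07e-35). Ahr-/- BMMs held 754, 681, 559 and 528 CPM, a change of 6.83 ± 0.20 (adjusted p = 3.94e-35). By the estimates, Socs3 had the largest fold of the 8 members at 20 h in both genotypes, at 124-fold and 114-fold, although in Ahr-/- BMMs the intervals of Socs3 (86.2 to 150 fold) and Socs1 (60.7 to 156 fold) overlapped.

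Cish encodes CIS, a family member induced by STAT5 downstream of GM-CSF, IL-3, IL-2 and erythropoietin. Unactivated Ahr+/+ BMMs at 3 h held 1.07, 1.20, 1.23 and 0.474 CPM. With hk S.E. for 3 h the values were 73.2, 73.5, 63.2 and 73.5 CPM, a log2-fold change of 6.12 ± 0.35 or 69.4-fold with an interval of 42.9 to 112 (adjusted p = 1.56e-22). Ahr-/- BMMs at 3 h gave 82.0, 75.2, 74.4 and 72.6 CPM and a change of 6.02 ± 0.34 (adjusted p = 9.42e-23). The genotypes overlapped at this time.

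At 20 h Cish had returned to 3.10, 2.32, 1.82 and 2.36 CPM in activated Ahr+/+ BMMs, against 1.33, 1.29, 0.958 and 1.15 CPM in unactivated ones. The groups did not overlap, and the log2-fold change was 1.01 ± 0.33 (adjusted p = 0.00646). That call was held in 3 of the 8 fits that left out 1 library. Without the first activated library it stood at 0.89 ± 0.35 (adjusted p = 0.0259), and with the series of library identifiers in the labels as a covariate at 1.09 ± 0.38 (adjusted p = 0.0103).

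Socs7, which is expressed in many tissues and binds insulin receptor substrates and adaptor proteins, rose 5.40-fold at 3 h in Ahr+/+ BMMs. It was read at 19.2, 19.7, 19.8 and 16.9 CPM in unactivated Ahr+/+ BMMs and at 101, 102, 95.7 and 110 CPM after 3 h of hk S.E., a log2-fold change of 2.43 ± 0.08 (adjusted p = 6.23e-32). In Ahr-/- BMMs the change was 2.40 ± 0.08 (adjusted p = 9.46e-32). At 20 h the activated Ahr+/+ libraries held 26.4, 25.9, 24.0 and 23.4 CPM against 18.5 to 20.2 CPM, a small change of 0.35 ± 0.08 (adjusted p = 0.00013). The matching change in Ahr-/- BMMs, 0.26 ± 0.08 (adjusted p = 0.00473), was lost in 4 of 8 fits that left out 1 library, most clearly without the second unactivated library (0.19 ± 0.08, adjusted p = 0.0422).

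Socs2 limits growth hormone and IGF-1 signaling, and was the least abundant member, with 4 to 103 read pairs per library. At 3 h it did not pass the test with hk S.E. in either genotype (Ahr+/+ 0.85 ± 0.38, adjusted p = 0.0458, and Ahr-/- 0.41 ± 0.35, adjusted p = 0.311). At 20 h unactivated Ahr+/+ BMMs held 0.384, 0.566, 0.284 and 0.347 CPM and activated ones 0.898, 1.12, 1.01 and 1.66 CPM, with no overlap and a log2-fold change of 1.61 ± 0.35 (adjusted p = 5.06e-05). The Ahr-/- change was 1.59 ± 0.34 (adjusted p = 6.24e-05), although the third activated library, at 0.589 CPM, lay below the highest unactivated one, at 0.649 CPM.

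Socs5, described as an inhibitor of IL-4 and EGF receptor signaling, fell. Unactivated Ahr+/+ BMMs at 3 h held 18.9, 25.4, 15.8 and 21.2 CPM and activated ones 7.80, 8.82, 7.62 and 8.86 CPM, a log2-fold change of -1.30 ± 0.13 or 2.46-fold lower (adjusted p = 1.12e-12). Activated and unactivated libraries did not overlap in any of the 4 comparisons, in which 62.8% and 55.2% of all genes at 3 h, and 65.9% and 51.6% at 20 h, did not overlap either (Ahr+/+ and Ahr-/- in that order). The other changes were -0.99 ± 0.13 in Ahr-/- BMMs at 3 h (adjusted p = 1.31e-09), -1.25 to -0.75 as the 95% confidence interval in Ahr+/+ BMMs at 20 h (adjusted p = 6.8e-10) and -0.98 ± 0.13 in Ahr-/- BMMs at 20 h (adjusted p = 1.25e-09).

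Socs6 (chromosome 18), which binds the receptor tyrosine kinases KIT and FLT3 and the insulin receptor, fell later. At 20 h it dropped from 29.5, 34.9, 28.0 and 30.9 CPM to 13.9, 15.4, 13.2 and 13.6 CPM in Ahr+/+ BMMs, a log2-fold change of -1.14 ± 0.16 (adjusted p = 1.23e-08). The change in Ahr-/- BMMs was -1.12 ± 0.16 (adjusted p = 2.16e-08). At 3 h it stood at -0.44 ± 0.16 (adjusted p = 0.0161) and -0.40 ± 0.16 (adjusted p = 0.025), and with the replicate number as a block within genotype at -0.43 ± 0.12 (adjusted p = 0.000873) and -0.44 ± 0.11 (adjusted p = 0.00075), which passed. The block takes equal numbers as 1 mouse. Unactivated Ahr-/- library 1 at 3 h did not deviate together with its same-numbered activated libraries.

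Socs4, closest in sequence to Socs5, passed in none of the 4 activation comparisons. In Ahr+/+ BMMs at 20 h it was read at 23.6 ± 1.2 CPM, none of the libraries above 24.7 CPM, without and at 38.5, 40.5, 33.9 and 31.7 CPM with hk S.E., which did not overlap. The log2-fold change was 0.61 ± 0.25 (adjusted p = 0.0292), and 0.61 ± 0.15 with the replicate block (adjusted p = 0.000297). In Ahr-/- BMMs, which share the estimate of the spread, libraries 1 and 2 held 18.0 and 19.3 CPM and libraries 3 and 4 held 40.0 and 39.4 CPM at 20 h without activation.

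**Figure D2:**
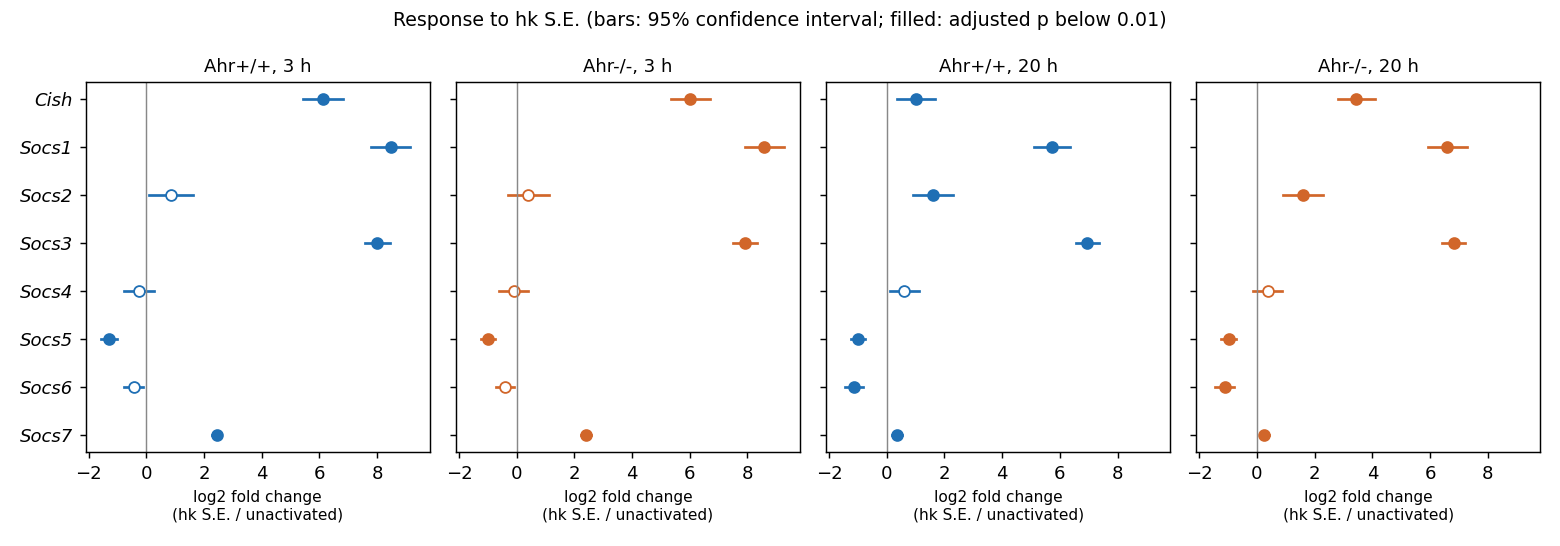
Log2-fold change of each member with hk S.E. over unactivated BMMs, by genotype and time, with 95% confidence intervals as bars and filled points where the adjusted p was below 0.01. Socs1 and Socs3 lie above 5 in all 4 panels, Socs5 lies near -1 in all 4, and Cish at 20 h lies at 1.01 in Ahr+/+ and at 3.44 in Ahr-/- BMMs.

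Comparing levels between genes needs a length. The one used was the union of all annotated exons, 6419 bases for Cish, which can be longer than the transcript that a cell makes. The order of members at similar levels depends on this choice. In RPKM, that is CPM per kilobase of exon, unactivated Ahr+/+ BMMs at 3 h held Socs4 at 4.47 ± 1.09, Socs5 at 3.17 ± 0.63, Socs7 at 2.60 ± 0.19, Socs6 at 2.53 ± 0.33 and Socs3 at 1.99 ± 0.61. Socs1, Cish and Socs2 were far lower, at 0.204 ± 0.039, 0.155 ± 0.055 and 0.0549 ± 0.0296 RPKM. After 3 h of hk S.E. the order was turned over, with Socs3 at 508 ± 33.8, Socs1 at 73.2 ± 15.7, Socs7 at 14.1 ± 0.8 and Cish at 11.0 ± 0.8 RPKM, above Socs4 at 3.76 ± 0.16 RPKM.

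The difference between the times was then tested within each genotype. In activated BMMs given DMSO, 5 members were lower at 20 h than at 3 h in Ahr+/+ cells (26.4% of all genes were lower) and 4 in Ahr-/- cells (24.3%). None was higher in either, by edgeR. Of all genes, 59.5% and 56.0% passed in either direction. Cish had the largest change of the 8 members, at -4.90 ± 0.31 in Ahr+/+ BMMs or 29.8-fold lower (adjusted p = 2.12e-20), and at -2.66 ± 0.27 in Ahr-/- BMMs or 6.31-fold lower (adjusted p = 8.28e-13).

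Socs1 was 9.37-fold lower at 20 h than at 3 h in Ahr+/+ and 5.07-fold lower in Ahr-/- BMMs (adjusted p = 1.38e-17 and 4.14e-13). Socs7 was 4.10-fold and 4.57-fold lower (adjusted p = 1.82e-28 and 1.1e-29). Socs3 was 2.87-fold and 2.30-fold lower (adjusted p = 9.57e-13 and 1e-09). These 3 members and Cish thus passed in both genotypes. Socs6 fell by 0.60 on the log2 scale in Ahr+/+ BMMs (adjusted p = 0.00108), and its change of -0.38 ± 0.16 in Ahr-/- BMMs (adjusted p = 0.035) passed with the block, at -0.39 ± 0.12 (adjusted p = 0.00293). Socs4 in Ahr+/+ BMMs, at 0.48 ± 0.26 (adjusted p = 0.0942), passed upward with the block at 0.48 ± 0.15 (adjusted p = 0.00528).

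In unactivated BMMs 0 of 16 pairs of member and genotype passed between 20 h and 3 h by edgeR, DESeq2 or limma. By edgeR, 6.07% and 6.98% of all genes passed. There 3 of the 16 had an unadjusted p below 0.05, as 24.2% and 24.5% of all genes had. With the replicate block 1 passed, Socs3 in Ahr+/+ BMMs at -0.46 ± 0.13 (adjusted p = 0.00798). The response to hk S.E. was itself smaller at 20 h than at 3 h for Socs1, Socs3, Socs7 and Cish, and more negative for Socs6, in both genotypes by the interaction of activation and time (5 of 8 members passed in each, all with a lower response, where 47.8% and 44.7% of all genes passed and 21.3% and 19.4% had a lower one). When 1 library was left out, the call for Socs6 was held in 9 of 16 fits in Ahr+/+ and in 7 of 16 in Ahr-/- BMMs (adjusted p up to 0.022 and 0.0236 by edgeR), and that for Socs1 in Ahr-/- BMMs in 13 of 16 (adjusted p up to 0.0159). All activated Ahr-/- libraries at 3 h given DMSO carried 1 series of library identifiers and all at 20 h another, so identifier series and time cannot be told apart there. In Ahr+/+ BMMs, where 1 series spans both times, the fit with the series as a covariate gave -4.86 ± 0.33 for Cish and -1.46 ± 0.16 for Socs3.

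To ask whether the ligands changed the family, BaP and I3C were each compared with DMSO in activated BMMs at both times and in both genotypes. None of the 64 pairs of member and comparison passed by edgeR, and none had an unadjusted p below 0.05. The lowest unadjusted p was 0.194. DESeq2 on all libraries and limma on the authors' log2 values also called 0, with 0 below 0.05, and DESeq2 on the compared groups called 0, with 2 below 0.05. By edgeR without the replicate block, few of all genes passed either. With BaP these were 0.0482% at 3 h and 0.234% at 20 h in Ahr+/+ BMMs, and 0.0275% and 0.0138% in Ahr-/- BMMs. With I3C they were 0.131% and 0.509% in Ahr+/+, and 0.0206% and 0.206% in Ahr-/- BMMs. An unadjusted p below 0.05 was held by 1.77% to 10.4% of all genes. These shares depend on the fit. For BaP at 20 h in Ahr+/+ BMMs, 34 genes passed here, 271 with the replicate block and 199 with DESeq2 on the compared groups. No member was among them. The paper, which used DESeq2, lists more AhR-dependent genes for BaP at 20 h than any of these fits. Its measure differs, as it takes genes called in 1 genotype but not in both and excludes those called without ligand.

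Socs2, the member described as an AhR target, was read in Ahr+/+ BMMs at 3 h of hk S.E. at 1.19, 1.36, 0.485 and 0.970 CPM after DMSO, at 0.830 to 1.47 CPM after BaP, and at 1.77, 1.40, 1.04 and 1.41 CPM after I3C. The 3 groups overlapped. The log2-fold change was 0.29 with BaP (95% confidence interval -0.46 to 1.04) and 0.48 with I3C (-0.25 to 1.21). Ahrr in the same libraries rose by 3.36 ± 0.26 with BaP (adjusted p = 7.13e-14) and by 2.13 ± 0.28 with I3C (adjusted p = 5.78e-06).

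At 20 h Socs2 in Ahr+/+ BMMs stood at 0.898 to 1.66 CPM after DMSO, 1.32 to 1.90 CPM after BaP and 0.785 to 1.73 CPM after I3C. The log2-fold changes were 0.37 (-0.26 to 1.00) and 0.02 (-0.63 to 0.68). In Ahr-/- BMMs they were -0.17 (-0.89 to 0.56) and -0.36 (-1.09 to 0.38) at 3 h, and -0.05 (-0.67 to 0.57) and -0.11 (-0.74 to 0.52) at 20 h, for BaP and I3C in that order. Activated Ahr+/+ libraries held 7 to 85 read pairs of Socs2. The outermost interval ends of its 8 ligand comparisons came from 1 comparison each, 0.470-fold from I3C in Ahr-/- and 2.31-fold from I3C in Ahr+/+ BMMs, both at 3 h.

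Across the same 8 comparisons the 95% confidence intervals of Socs7 lay between -0.25 and 0.25, those of Socs3 between -0.36 and 0.46, those of Socs5 between -0.31 and 0.45, those of Socs6 between -0.47 and 0.52 and those of Socs1 between -0.53 and 0.58. Socs4 reached from -0.71 to 0.72 and Cish from -1.01 to 0.68. In 1 of the 64 pairs the libraries did not overlap: Socs4 at 20 h in Ahr+/+ BMMs held 40.9 to 42.5 CPM after BaP and 31.7 to 40.5 CPM after DMSO (0.21 ± 0.25, adjusted p = 0.817), where 9.05% of all genes did not overlap. Of the AhR targets Ahrr, Nqo1, Tiparp, Cyp1a1, Cyp1a2 and Cyp1b1, 3 were expressed highly enough to be tested. By edgeR 1, Ahrr, rose with either ligand at both times in Ahr+/+ BMMs. The paper, which used DESeq2, reports that Nqo1 also rose in each of these comparisons.

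**Figure D3:**
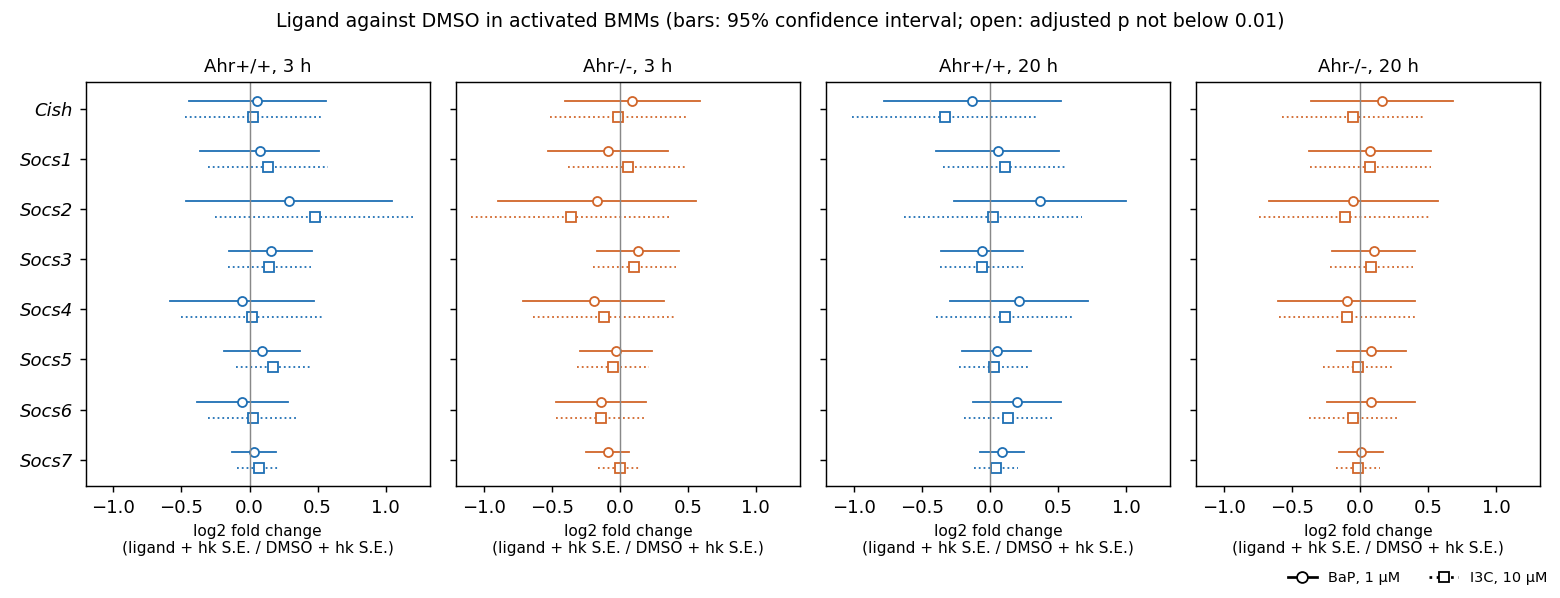
Log2-fold change of each member with BaP (circles, solid bars) or I3C (squares, dotted bars) over DMSO in activated BMMs, with 95% confidence intervals as bars. All points lie between -0.36 and 0.48, and none passed an adjusted p of 0.01.

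BaP and I3C were given at different doses, 1 µM and 10 µM, so the values above stand side by side. The libraries of both ligands were set against each other in 32 pairs of member and comparison. Of these edgeR, DESeq2 and limma called 0, and 0 unadjusted p-values fell below 0.05. By edgeR, 0.110% of all genes at 3 h and 0.282% at 20 h in Ahr+/+, and 0.0206% and 0.186% in Ahr-/- BMMs, were called. An unadjusted p below 0.05 was held by 4.16% and 5.71% of all genes in Ahr+/+ and by 3.12% and 3.23% in Ahr-/- BMMs, at 3 h and 20 h. The intervals of these differences ran from -0.92 to 0.98, both bounds belonging to Socs2. The ligand response was also compared between genotypes, and 0 of 32 pairs passed by edgeR, DESeq2 or limma, with 0 unadjusted p below 0.05. By edgeR, 0.0138% of all genes passed for BaP at 3 h and 0% in the other 3 comparisons. For BaP at 20 h, DESeq2 on all libraries called 15 genes and limma 3. Of all genes, 2.56% and 4.67% for BaP and 1.66% and 1.97% for I3C, at 3 h and 20 h, had an unadjusted p below 0.05 by edgeR. Socs2 with I3C at 3 h lay highest, at 0.83 in Ahr+/+ minus Ahr-/- (-0.20 to 1.87, unadjusted p = 0.112, adjusted p = 1).

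Ahr-/- BMMs were then compared with Ahr+/+ BMMs under DMSO to ask what the receptor's absence does to the family. Among 32 pairs of member and comparison, 1 passed: Cish was higher in Ahr-/- BMMs after 20 h of hk S.E. Of all genes, 12.5% passed in that comparison and 5.06% were higher, and in the comparisons with 0 members 1.21% (unactivated, 3 h), 0.702% (unactivated, 20 h) and 2.83% (hk S.E., 3 h) passed. An unadjusted p below 0.05 was held by 0 and 1 of 8 members in unactivated BMMs at 3 h and 20 h, where 9.99% and 12.5% of all genes had one, and by 1 and 2 of 8 members after hk S.E. at 3 h and 20 h, where 19.1% and 32.0% of all genes did. Activated Ahr+/+ BMMs at 20 h held Cish at 3.10, 2.32, 1.82 and 2.36 CPM and Ahr-/- BMMs at 17.0, 16.9, 5.78 and 8.74 CPM. The lowest Ahr-/- library was above the highest Ahr+/+ library, as the groups did not overlap for 20.4% of all genes, and Ahr-/- libraries 1 and 2 lay above libraries 3 and 4.

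The log2-fold change of Cish was 2.34 ± 0.29, a 5.07-fold difference with a 95% confidence interval of 3.37 to 7.64 (adjusted p = 2.87e-08). In unactivated BMMs the genotypes overlapped, with -0.09 ± 0.36 at 20 h and 0.20 ± 0.41 at 3 h, and they overlapped after 3 h of hk S.E., with 0.10 ± 0.25. The response of Cish to 20 h of hk S.E. was larger in Ahr-/- BMMs by 2.43 ± 0.46 on the log2 scale in a test of the interaction (adjusted p = 0.000262), where 4.41% of all genes passed and 2.08% had a larger response. Of 16 interactions of member, activation and genotype, 1 passed and 1 had an unadjusted p below 0.05, in both cases that of Cish at 20 h. At 3 h 0.0138% of all genes passed, and an unadjusted p below 0.05 was held by 5.96% of all genes at 3 h and by 21.5% at 20 h.

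The same contrast was added for ligand-exposed BMMs after the values had been seen. Of its 32 pairs of member and comparison 2 passed by edgeR, both of them Cish at 20 h, and 11 had an unadjusted p below 0.05. At 20 h, 4 of 8 members had such a p after BaP, where 42.0% of all genes did. After I3C 4 of 8 members did, against 35.6% of all genes. After BaP and 20 h of hk S.E., Cish was read at 3.12, 2.21, 1.70 and 1.79 CPM in Ahr+/+ and at 21.6, 14.7, 9.90 and 7.94 CPM in Ahr-/- BMMs, a log2-fold change of 2.63 ± 0.30 (adjusted p = 3.92e-10, where 23.3% of all genes passed and 11.5% were higher). After I3C the values were 2.14, 2.27, 1.17 and 2.00 CPM against 19.0, 15.9, 4.98 and 7.12 CPM, a change of 2.62 ± 0.31 (adjusted p = 3.61e-09, where 15.6% of all genes passed and 7.47% were higher). With 4 mice per genotype in all, these libraries do not come from further mice. For Cish every Ahr-/- library lay above every Ahr+/+ library after either ligand. After BaP and 20 h of hk S.E., Socs3, higher in Ahr-/- BMMs, and Socs7, lower in them, did not overlap between genotypes either. After I3C both overlapped. The groups did not overlap for 31.0% of all genes after BaP and for 25.4% after I3C, in either direction.

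**Figure D4:**
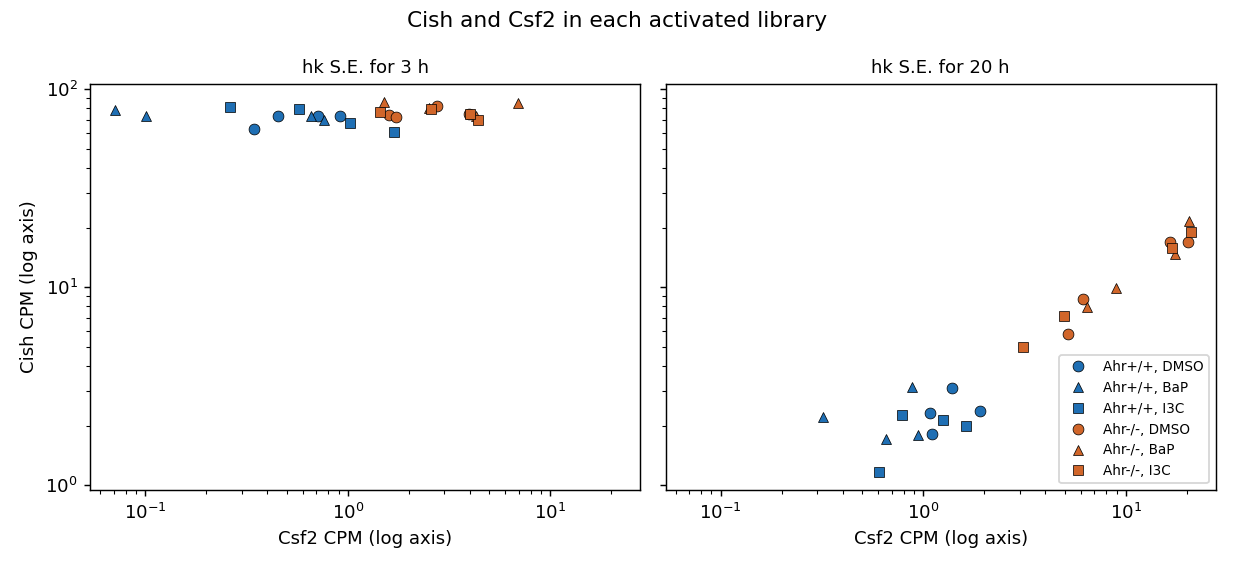
Cish against Csf2 in each activated library on log axes of CPM, at 3 h and at 20 h, coloured by genotype with a marker for each exposure. At 20 h the 12 Ahr+/+ libraries lie between 1.17 and 3.12 CPM of Cish and the 12 Ahr-/- libraries between 4.98 and 21.6 CPM, and at 3 h all 24 lie between 60.9 and 86.1 CPM.

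Csf2, which encodes the GM-CSF that signals through JAK2 and STAT5, was higher in Ahr-/- than in Ahr+/+ BMMs at 20 h, as Cish was. After hk S.E. for 20 h with DMSO it was read at 1.39, 1.08, 1.10 and 1.90 CPM in Ahr+/+ and at 20.3, 16.5, 5.19 and 6.16 CPM in Ahr-/- BMMs, a log2-fold change of 3.11 ± 0.53 (adjusted p = 2.87e-05). Ahr-/- libraries 1 and 2 were again above libraries 3 and 4, as they were for Socs1 and Socs3 in this group. An order by number, in either direction, was held in at least 7 of 8 Ahr-/- groups by 22.7% of all tested genes. At 3 h, when Cish overlapped between genotypes, Csf2 held 0.346 to 0.914 CPM in Ahr+/+ and 1.59 to 3.98 CPM in Ahr-/- BMMs (2.06 ± 0.69, adjusted p = 0.065). In both genotypes Csf2 was thus higher at 20 h than at 3 h, whereas Cish was lower. Csf2 was at 0 counts in all 16 unactivated libraries. Csf3 and Il10 were also higher in Ahr-/- BMMs at 20 h of hk S.E., as given below. Whether Csf2 has a part in the Cish difference was not tested.

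Other measures moved with the genotype at 20 h of hk S.E. as well. The 5 fibroblast markers summed to 2.76 to 3.96 CPM in Ahr+/+ and to 6.84 to 9.13 CPM in Ahr-/- BMMs, the 4 dendritic cell markers to 0.859 to 1.83 CPM and 0.0750 to 0.442 CPM, and the 4 B cell markers to 0.532 to 0.817 CPM and 0.994 to 1.61 CPM. None of the 3 lists overlapped between genotypes, and 1 dendritic cell marker was at 0 in all 4 Ahr+/+ libraries. The part of these cells in the result was not tested. At 3 h of hk S.E., where Cish overlapped between genotypes, the dendritic cell markers (0.562 to 1.03 CPM in Ahr+/+ and 0.706 to 1.06 CPM in Ahr-/- BMMs) and the B cell markers (1.04 to 2.11 CPM and 1.37 to 2.11 CPM) overlapped too, and the fibroblast markers did not (7.18 to 12.4 CPM and 13.5 to 21.7 CPM). All Ahr-/- libraries at 20 h carried 1 series of library identifiers, and all activated Ahr+/+ libraries at 20 h carried another, so series and genotype cannot be told apart within that contrast. A fit over all groups with the series as a covariate gave 2.16 ± 0.47 for Cish (adjusted p = 0.00184). The step between these series was estimated there from unactivated libraries alone, so the fit cannot separate series from genotype after hk S.E. The activation response in Ahr-/- BMMs at 20 h, which lies within 1 series, was 3.44 ± 0.32 (adjusted p = 6.76e-14) and does not compare the genotypes.

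No other member passed between genotypes under DMSO. At 20 h of hk S.E., Socs1 stood at 0.57 ± 0.22 (adjusted p = 0.0658) and Socs3 at 0.30 ± 0.15 (adjusted p = 0.158). Socs5 at 3 h of hk S.E. did not overlap, at 7.62 to 8.86 CPM in Ahr+/+ and 9.01 to 12.9 CPM in Ahr-/- BMMs, with a log2-fold change of 0.45 ± 0.13 (adjusted p = 0.0344). Groups also did not overlap for 12.1% of all genes in that comparison. Socs3 in unactivated BMMs at 20 h also did not overlap, at 3.59 to 4.68 CPM and 4.94 to 6.18 CPM (0.43 ± 0.17, adjusted p = 0.236), as 8.28% of all genes did not. Among Socs2, Socs4, Socs6 and Socs7 the lowest adjusted p was 0.229, that of Socs7 at 20 h of hk S.E. (-0.14 ± 0.08).

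Ahr-/- libraries split by replicate number. Libraries 1 and 2 both lay below libraries 3 and 4 in 7 of 8 Ahr-/- groups for Socs4 and for Socs6, and above them in 6 of 8 for Socs3 and in 5 of 8 for Cish. Activated Ahr-/- BMMs at 20 h held Socs4 at 26.8, 24.3, 51.5 and 49.3 CPM, so that libraries 3 and 4 lay far above libraries 1 and 2. The exception for Socs4 and Socs6 was unactivated BMMs at 3 h, where the first library was highest, at 44.8 and 33.1 CPM. Such an order of the numbers in at least 7 of 8 groups was seen for 22.7% of all tested genes in Ahr-/- BMMs and for 0.97% in Ahr+/+ BMMs. In Ahr+/+ BMMs no member showed it in more than 4 of 8 groups.

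The genes that act with the family were counted from lists of known components. At 3 h of hk S.E. in Ahr+/+ BMMs 24.2% of all genes rose and 32.3% fell, and between genotypes at 20 h of hk S.E. 5.06% of all genes were higher and 7.39% lower in Ahr-/- BMMs. Of 11 JAK and STAT genes, 9 rose and 1 fell at 3 h of hk S.E. in Ahr+/+ BMMs, with a median log2-fold change of 1.44 against -0.10 over all tested genes. Jak2, the kinase of the GM-CSF and growth hormone receptors, rose by 4.46 (adjusted p = 2.66e-33) and Stat5a, which encodes a STAT5 protein that induces Cish, by 3.21 (adjusted p = 2.99e-31). Stat5a then fell between 3 h and 20 h by 3.23 on the log2 scale (adjusted p = 6.69e-31), to 0.02 over unactivated BMMs at 20 h (adjusted p = 0.859), whereas Jak2 at 20 h was still up by 4.54 (adjusted p = 1.83e-33). Between genotypes at 20 h of hk S.E., 4 of the 11 were lower in Ahr-/- BMMs and 0 higher. These were Stat4 (-1.05, adjusted p = 0.000331), Stat2 (-0.83, adjusted p = 3.72e-05), Jak1 (-0.38, adjusted p = 0.000243) and Stat3 (-0.31, adjusted p = 0.00429).

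Of 12 other inhibitors of JAK-STAT signaling, 5 rose and 3 fell at 3 h, with a median of 0.08. Usp18, which restrains the type I interferon receptor, rose by 5.50 (adjusted p = 3.71e-25) and the phosphatase Ptpn2 by 2.09 (adjusted p = 3.12e-24), and the adaptor Sh2b3 fell by 1.44 (adjusted p = 6.95e-19). None of the 12 passed between genotypes at 20 h of hk S.E. in edgeR. Of the 6 genes listed for the SOCS box complex, Cul2, Eloc and Rbx1 rose at 3 h, by 1.42, 0.65 and 0.33 (adjusted p = 3.11e-07, 5.91e-07 and 2.59e-05), and 0 fell. Cul5, which encodes the Cullin 5 named above, Elob and Rnf7 were not among the called genes.

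Of 23 cytokine ligands, 13 passed the filter on low counts and 12 of those rose at 3 h. A filter that some genes pass only through their activated libraries favours that outcome. At 20 h of hk S.E., 3 were higher and 2 lower in Ahr-/- than in Ahr+/+ BMMs. Besides Csf2, Csf3 was higher by 2.58 (adjusted p = 1.85e-05) and Il10 by 0.98 (adjusted p = 0.00918), and Ifnb1 and Il27 were lower, with log2-fold changes of -2.51 (adjusted p = 0.00134) and -1.18 (adjusted p = 1.07e-07).

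Of 26 cytokine receptor genes 20 were tested, and 10 rose and 6 fell at 3 h. Il6st, which encodes gp130, fell by 2.30 (adjusted p = 5.7e-29), and Il6ra, which encodes the chain that binds IL-6, fell by 2.97 (adjusted p = 1.9e-26). Il10ra rose by 1.73 (adjusted p = 2.41e-23). Of the 9 tested among 10 described SOCS targets outside these receptors, 5 rose and 2 fell, with Irs2 at -2.31 (adjusted p = 1.26e-12) and Rela at 1.46 (adjusted p = 1.13e-20). Between genotypes at 20 h of hk S.E., 2 receptor genes were lower in Ahr-/- BMMs and 0 higher, Il12rb1 at -1.99 (adjusted p = 9.27e-06) and Il21r at -1.46 (adjusted p = 6.87e-11). Of the described targets the receptor tyrosine kinases Flt3, also 1 of the dendritic cell markers, and Kit were lower, at -2.92 and -1.90 (adjusted p = 0.000139 and 0.00221), and Igf1r was higher, at 1.11 (adjusted p = 6.22e-06).

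The 16 groups were sorted by the mean of each member, and neighbouring groups were compared. Gaps between neighbours were not counted over all genes. A wide spread within a group also closes a gap, so the gaps give no number of levels. Socs1 had 2 gaps among its 15 neighbouring pairs of groups at which the libraries did not overlap, and these separated all activated groups at 3 h (160 to 234 CPM), all activated groups at 20 h (22.7 to 35.5 CPM) and all unactivated groups (0.320 to 0.594 CPM). Socs3 had 3 such gaps, at the same places and between the last 2 unactivated groups. Cish also had 2, below the activated groups at 3 h and below the 3 activated Ahr-/- groups at 20 h. Socs5 and Socs7 had 1 each, and Socs2, Socs4 and Socs6 had none. The ratio of the highest to the lowest group mean ran from 730-fold for Socs1, 397-fold for Socs3 and 81.5-fold for Cish down to 5.69 for Socs7, 3.87 for Socs2, 2.72 for Socs5, 2.33 for Socs6 and 1.77 for Socs4.

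Over the 16 group means of log2 CPM, which share their libraries and their control groups, Socs1 and Socs3 were correlated at a Pearson r of 0.98, Cish and Socs7 at 0.92, and Socs5 with Socs3 at -0.97. The genes most like each member across these means were Edn1 for Socs1 (r = 0.999), Mmp14 for Socs3 (0.997), Pik3r6 for Cish (0.996), Rel for Socs7 (0.998), Nfatc1 for Socs5 (0.990), Wnk1 for Socs6 (0.994), Zfp655 for Socs4 (0.982) and Usp32 for Socs2 (0.943). These values describe shared patterns over few levels of activation and time.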

How the data were processed

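Poly(A) RNA of 64 libraries was sequenced on 1 flow cell. Per the labels and the study's methods, the authors aligned reads with HISAT2 2.1.0 to mm10 and deposited raw counts of read pairs per GENCODE M22 gene from htseq-count 0.9.1 (reverse stranded, intersection-strict). The authors also deposited variance-stabilised values on a log2 scale for 14549 genes, used here for limma alone. Between 19.2% and 25.1% of read pairs were on no gene and were left out.

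Counts were filtered with filterByExpr (min.count 10), scaled by TMM and fitted in edgeR 4.0.16 (R 4.3.3) with the 16 group means over all 64 libraries. Quasi-likelihood tests used Benjamini-Hochberg adjustment over 14537 genes at a threshold of 0.01, and the script was tested on simulated data. SE is the log2-fold change divided by the square root of F. CPM use TMM-scaled totals, and RPKM divide them by the union of exons in GENCODE M21. Alternatives were DESeq2 1.42.0, limma 3.58.1, other scaling, no filter, the series of library identifiers as covariate, the replicate block and leaving out each library.

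The members and gene lists were chosen with earlier results of these data known. Named genes were the 8 members, up to 5 called genes per pathway list with the largest absolute log2-fold change, for each member the gene with the highest Pearson r, and Ahr and Ahrr as checks. For the replicate block, equal numbers were taken as 1 mouse, since the study used 4 per genotype, although no source used here states it. Deviations from the group means correlated above 0.1 between same-numbered Ahr-/- libraries at 20 h in 24 of 24 pairs of groups and replicates (median 0.524). At 3 h 21 of 24 did in Ahr-/- libraries (median 0.302). In Ahr+/+ libraries 11 of 24 did at 3 h (median 0.0861) and 21 of 24 at 20 h (median 0.207). Unactivated Ahr-/- library 1 at 3 h correlated at -0.173, -0.0544 and -0.248 with its same-numbered activated libraries.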

Additional observations from a re-analysis of the deposited data

Results flagged for a closer look

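In unactivated and activated groups of 4 libraries, 2 of 128 combinations of member and group held a library far from its neighbours, 1.56%, where chance gives about 1 in 20. Cish in Ahr+/+ BMMs after DMSO and 3 h of hk S.E. stood at 63.2 CPM in library 3 and at 73.2 to 73.5 CPM in the others. Socs3 in the same group stood at 1612 CPM in library 2 and at 1401 to 1435 CPM in the others.

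The response to activation differed between groups in these tests of the interaction. At 20 h Cish responded more strongly in Ahr-/- than in Ahr+/+ BMMs, by 2.43 on the log2 scale. The activated libraries of the genotypes carried different series of identifiers at 20 h, so series and genotype cannot be told apart there. Between 3 h and 20 h in Ahr+/+ BMMs the response changed by -2.75 for Socs1, by -1.05 for Socs3, by -0.70 for Socs6, by -2.08 for Socs7 and by -5.11 for Cish. In Ahr-/- BMMs it changed by -1.99 for Socs1, by -1.08 for Socs3, by -0.71 for Socs6, by -2.14 for Socs7 and by -2.58 for Cish.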

How the results depend on the processing

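No result changed direction under the alternatives run. Of 256 pairs of member and comparison, 45 passed, and between 42 (no filter on low counts) and 47 (edgeR or DESeq2 on the compared groups) did so under other tools and scalings. At a threshold of 0.05, 2 members in place of 1 differed between Ahr-/- and Ahr+/+ BMMs, the second being Socs5 at 3 h of hk S.E. With the replicate block within genotype, 51 of 224 pairs passed, among them the 44 earlier calls that were fitted with it. The 45th, Cish between genotypes at 20 h, was not, since the block lies within genotype. Besides those given above, the block added the interaction of activation and time for Socs4 in Ahr+/+ BMMs (0.86, adjusted p = 0.000521), which stood at 0.87 (adjusted p = 0.0362) without it, and it changed no other call.

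The activation of Cish at 20 h in Ahr+/+ BMMs (0.50, adjusted p = 0.0364, limma) and of Socs7 at 20 h in Ahr-/- BMMs (adjusted p from 0.0171 to 0.08 under the settings that lost it) did not hold throughout. Nor did the interaction of activation and time for Socs6, which passed in 9 of 16 fits without 1 library in Ahr+/+ (adjusted p = 0.022 without library 3 of unactivated BMMs at 3 h) and in 7 of 16 in Ahr-/- BMMs (adjusted p = 0.0236 without library 2 of that group), or for Socs1 in Ahr-/- BMMs, which passed in 13 of 16 (-1.81, adjusted p = 0.0159 without library 3 of unactivated BMMs at 20 h). The cause was not tested. The Cish difference between genotypes at 20 h stayed between 2.13 and 2.57 without any 1 library, and was 1.55 by limma. Scaling moved the median of all genes by at most 0.114, in the interaction of activation and time in Ahr-/- BMMs. Socs2 was counted at 4 to 103 read pairs per library, and how depth sets its intervals was not tested.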
